A study of Mus musculus with 15 samples.

Results

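The genes described here encode the nuclear subunits of respiratory chain complexes III and IV, the subunits of ATP synthase (complex V), and cytochrome c. They were chosen by symbol alone: every probe set with a single gene symbol starting with Uqcr or Atp5, or with Cox followed by a digit from 4 to 8, or equal to Cyc1 or Cycs. The rule took 79 of the 22690 probe sets on the array, which stand for 43 of 12394 genes: 9 of complex III (16 probe sets), cytochrome c (3 probe sets), 16 of complex IV (32 probe sets) and 17 of complex V (28 probe sets). All 79 were among the 22626 probe sets tested, with no filter on low values.

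Complex III passes electrons from ubiquinol to cytochrome c, complex IV passes them from cytochrome c to oxygen, and the proton gradient that both help to build drives ATP synthesis by complex V. Most subunits of these complexes are encoded in the nucleus and imported, and skeletal muscle, above all its slow and oxidative fibers, holds large amounts of them. Several complex IV subunits exist as a muscle and heart isoform and as a general (liver) isoform: Cox6a2 and Cox6a1, Cox7a1 and Cox7a2, and Cox8b and Cox8a, in that order.

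RNA came from the gastrocnemius, a calf muscle, of 15 male C57BL/6NHsd mice, with 1 MOE430A array per mouse. The young group held 5 mice of 5 months and the old group 5 mice of 25 months, both on a control diet of 84 kcal per week. The 5 old CR mice, also of 25 months, had been on calorie restriction, a 26% difference in calories, with a diet enriched in protein, vitamins and minerals. All mice were of this strain and sex, were housed singly and gave messenger RNA from whole muscle, so the values average over every cell type in the tissue. Values are linear intensities, and a difference is that of group means of log2 intensity, the first group named minus the second. All 7 fast fiber markers lay at or above the 99.72nd percentile of brightness and the 3 cardiac muscle markers between the 13.14th and the 26.79th, although brightness also depends on the probe set and does not tell the gastrocnemius from another fast muscle.

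The arrays differed in RNA quality along with the groups. For Gapdh, the 3' control probe set minus the 5' one on the log2 scale, a bias that grows as RNA degrades, was -0.04 ± 0.19 (SD, n = 5) in the young, 0.25 ± 0.10 in the old and -0.21 ± 0.12 in the old CR. For Actb it was -0.32 ± 0.09, 0.01 ± 0.11 and -0.38 ± 0.09. Both differed between old CR and old (two-sided exact permutation test, p = 0.00794, which is the floor for 5 against 5 mice, adjusted p = 0.0159 over 6 tests). Between old and young the difference passed for Actb (exact permutation test, adjusted p = 0.0159) and not for Gapdh (adjusted p = 0.0595). Young replicate 3 stood apart from the other young mice, with a Gapdh value of 0.28.

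The member genes were bright as a class. Of the 43, each represented by its brightest probe set, 39 lay among the 2263 brightest probe sets, and only Cox7c and Cox6b2 lay below the median. Of the 79 probe sets, 10 have the suffix x_at and 10 the suffix s_at, which mark probes that can bind transcripts of more than 1 gene, so their values may include related genes or processed copies.

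Promoter sequence was taken from RefSeq (GRCm38.p6) as 250 bases before and 50 bases after each start, and was found for 32 of the 43 genes. The search took 4 motifs known from nuclear genes of the respiratory chain or from muscle genes and was run on both strands. A match is a description of letters, not a bound site. The NRF1 core GCGCATGC was in 7 of the 32 (21.9%), namely Atp5g2, Atp5k, Atp5l, Cox6a1, Cycs, Uqcr11 and Uqcrc1, against 3.05% of 27025 genes. The ETS motif CCGGAAG was in 11 (34.4%), among them Atp5e, Cox8a, Uqcr11 and Uqcrh, against 9.93%. The ESRRA motif TCAAGGTCA was in Atp5g3 alone, against 0.466% of all genes. The muscle E-box CAGCTG was in Atp5b and Cox8b (6.25%), against 18.3%. The NRF1 core or the ETS motif was in 14 of the 32 genes and both were in 4.

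The 250 bases before the start are printed for 4 genes, all on the minus strand and written 5' to 3'. Cox8b and Cox8a are shown as the muscle and the general isoform of 1 subunit, and Uqcrh and Atp5e as the genes with the lowest adjusted p of complexes III and V. Capitals mark the E-box in Cox8b and the ETS motif, on the reverse strand, in Uqcrh and Atp5e. The ETS match of Cox8a does not lie within the printed bases.
Cox8b, chr7:140900447-140900696: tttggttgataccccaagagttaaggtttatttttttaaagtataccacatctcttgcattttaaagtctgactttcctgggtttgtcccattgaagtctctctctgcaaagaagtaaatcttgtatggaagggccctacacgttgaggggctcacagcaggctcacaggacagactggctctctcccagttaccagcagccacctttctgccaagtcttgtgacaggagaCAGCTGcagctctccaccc
Cox8a, chr19:7217617-7217866: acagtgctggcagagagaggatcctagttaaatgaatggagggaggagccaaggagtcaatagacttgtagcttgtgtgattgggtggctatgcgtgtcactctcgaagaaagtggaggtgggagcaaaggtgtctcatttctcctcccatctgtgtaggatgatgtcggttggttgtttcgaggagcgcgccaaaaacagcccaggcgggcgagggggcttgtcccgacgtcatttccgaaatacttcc
Uqcrh, chr4:116075071-116075320: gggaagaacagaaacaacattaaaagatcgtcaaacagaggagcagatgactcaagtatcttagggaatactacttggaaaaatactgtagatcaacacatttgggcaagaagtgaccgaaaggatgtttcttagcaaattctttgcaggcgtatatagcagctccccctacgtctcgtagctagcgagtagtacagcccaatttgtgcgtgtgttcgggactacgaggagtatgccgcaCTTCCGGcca
Atp5e, chr2:174464102-174464351: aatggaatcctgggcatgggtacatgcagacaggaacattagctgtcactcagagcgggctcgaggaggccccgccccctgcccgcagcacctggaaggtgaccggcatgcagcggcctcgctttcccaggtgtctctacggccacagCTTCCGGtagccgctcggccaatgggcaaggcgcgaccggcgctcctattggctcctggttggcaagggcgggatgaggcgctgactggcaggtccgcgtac

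The first comparison asked how the subunits differed with age. No member probe set passed an adjusted p under 0.05 (limma, Benjamini-Hochberg over all 22626 probe sets), where 0.265% of all probe sets did. At an unadjusted p under 0.05 there were 19 members (24.1%), 18 of them lower in old mice, against 15.5% of all probe sets. Among the 11313 brightest probe sets alone the shares were closer, with 18 of 70 members (25.7%) against 23.3%, in either direction. With each array centred on its median the members had the smaller share, 9 of 79 (11.4%) against 15.5% of all probe sets. After quantile normalization it was 16 of 79 (20.3%) against 14.7%. Means were lower in old than in young mice for 37 of 43 genes (86.0%), against 57% of all probe sets, and for 30 genes with each array centred on its median. The median difference over the 43 genes was -0.18, against -0.06 over all probe sets and 0.03 over the 2263 brightest. For 8 genes (18.6%) every old mouse lay below every young mouse, and for 10 of 79 probe sets (12.7%), against 1.998% of all probe sets. This last share was not counted among the brightest probe sets alone. In bulk muscle, less RNA per fiber and fewer fibers of a type cannot be told apart.

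The second comparison asked how old CR mice differed from old mice on the control diet. Here 6 of 79 member probe sets passed (7.59%), all higher in old CR, where 4.87% of all probe sets passed in either direction and 2.70% did so upwards. They measured Atp5e, Atp5pb, Cox8b, Uqcrh, Atp5j2 and Uqcr11. Means were higher in old CR for 38 of 43 genes (88.4%), against 55.3% of all probe sets, for 34 genes with each array centred on its median and for 30 after quantile normalization. The median difference over the genes was 0.24, against 0.06 over all probe sets and 0.01 over the 2263 brightest. At an unadjusted p under 0.05 there were 29 member probe sets (36.7%), all higher, against 21.9% of all probe sets in either direction. Among the 11313 brightest probe sets alone it was 33 of 70 members (47.1%), against 31.7%. The shares were closer with each array centred on its median, at 18 of 79 members (22.8%) against 22.1% of all probe sets. After quantile normalization they were 18 of 79 (22.8%) against 20.9%. In 11 probe sets (13.9%) every old CR mouse exceeded every old mouse, against 4.86% of all probe sets, a share not counted among the brightest alone.

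These calls moved with the 3' bias above, whose part in them was not tested beyond 1 fit. With the 3' bias (mean of Gapdh and Actb) as a covariate, no member passed in any comparison. Of all 22626 probe sets, that fit called 0 in old against young, 0 in old CR against old and 8 in old CR against young (limma, adjusted p under 0.05), so the loss of calls was not particular to the members. An unadjusted p under 0.05 was found for 4, 5 and 10 of the 79 members (5.06%, 6.33% and 12.7%) in these comparisons, against 6.42%, 6.46% and 10.1% of all probe sets. The median difference in that fit was -0.24 for old against young and 0.33 for old CR against old, where it was -0.18 and 0.24 without the covariate. The averaged bias was 0.05 to 0.27 in old mice and -0.42 to -0.21 in old CR mice. These groups did not overlap, so group and 3' bias cannot be told apart by that fit. Among the 11313 brightest probe sets alone, 15 of 70 members passed upwards in old CR against old (21.4%), against 7.63% of the 11313.

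**Figure D1:**
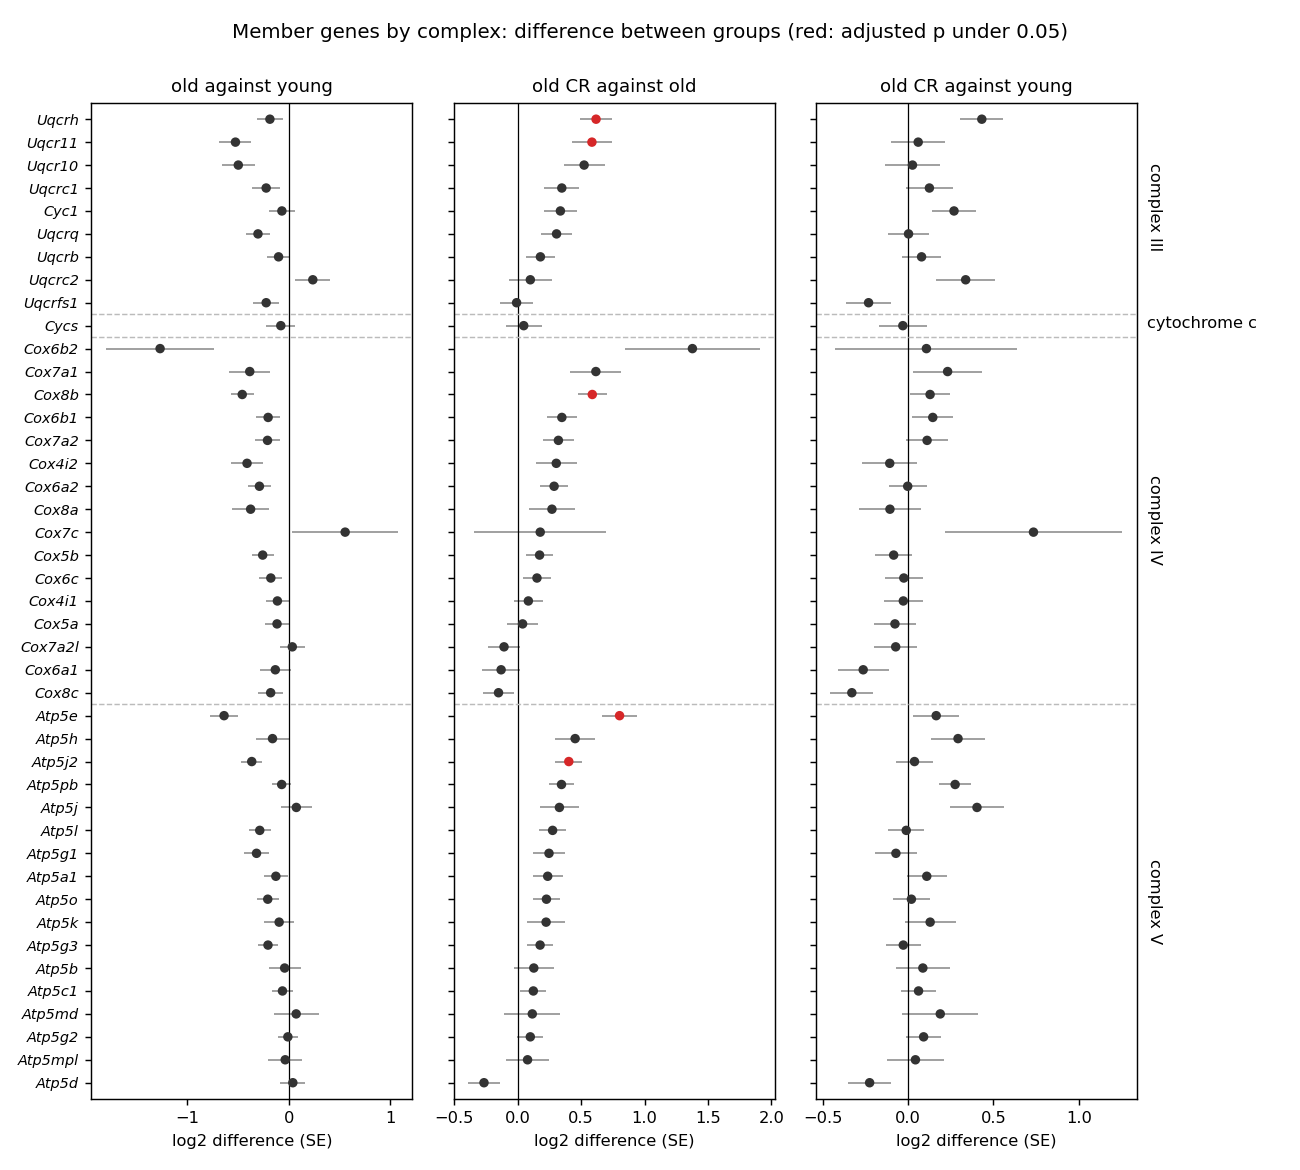
Difference of mean log2 intensity (point) and its standard error (line) for the brightest probe set of each of the 43 genes, by complex, in the 3 comparisons, with a scale of its own in each panel. Red points have an adjusted p under 0.05 and occur only in old CR against old (5 genes), where 38 points lie above 0, while 37 lie below 0 in old against young.

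Of the 3 complexes, complex III had the largest median difference in old CR against old. Its 9 genes had a median of 0.34 (0.25 with centred arrays, 0.23 after quantile normalization) and 8 of them were higher, with 2 called (Uqcrh and Uqcr11). With age the median was -0.22 and 8 of 9 genes were lower. The 5 small accessory subunits had a median of 0.52 in old CR against old and -0.30 in old against young, and all 5 were higher in the former and lower in the latter.

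Uqcrh, the hinge protein that helps cytochrome c1 dock with cytochrome c, rose in old CR against old. Its intensity was 4601, 3510, 4113, 3547 and 3770 in the young mice, 3241, 3651, 3462, 3303 and 3446 in the old and 6816, 4764, 5190, 5064 and 4655 in the old CR. All 5 old CR mice lay above all 10 other mice. The difference was 0.62 (SE 0.13) against old (limma, adjusted p = 0.0177), and 0.43 against young (adjusted p = 0.188). With age it was -0.19 (adjusted p = 0.504), and young and old overlapped.

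Uqcr11, a small subunit of the membrane part, also rose. Its intensity was 8283, 8730, 8239, 10289 and 10222 in the young mice, 6864, 6050, 7455, 5299 and 6172 in the old and 12538, 6880, 9719, 9078 and 10126 in the old CR. Old mice lay below all young mice, and 4 of the 5 old CR mice lay above all old mice, with old CR replicate 3 inside the old range. The difference was 0.59 (SE 0.16) against old (limma, adjusted p = 0.0479) and -0.53 (SE 0.16) for old against young (adjusted p = 0.133). The call in old CR held when young replicate 3 or old CR replicate 3 was left out and was lost without any of the other 13 arrays.

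Uqcr10, another small subunit of complex III, came closest to these without passing. Its intensity was 6427, 5545, 7438, 5906 and 5963 in the young mice, 4736, 4440, 4774, 3026 and 5473 in the old and 7803, 5316, 6428, 6283 and 6103 in the old CR. Old mice lay below all young mice, while old CR overlapped both other groups. The difference was -0.50 (SE 0.16) with age (limma, adjusted p = 0.158) and 0.52 (SE 0.16) in old CR against old (adjusted p = 0.0764). The gene's 2 dimmer probe sets gave -0.87 and -0.35 with age (adjusted p = 0.104 and 0.292) and 0.70 and 0.34 in old CR against old (adjusted p = 0.0931 and 0.210).

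The other accessory subunits, Uqcrq and Uqcrb, known as ubiquinone-binding proteins, differed by -0.30 and -0.10 with age and by 0.31 and 0.18 in old CR against old. For Uqcrq every old mouse lay below every young mouse. Cyc1, the cytochrome c1 that hands electrons on, differed by -0.07 and 0.34, while Uqcrfs1, the Rieske iron-sulfur protein, differed by -0.22 and -0.01. Of the core proteins, which anchor the matrix side, Uqcrc1 differed by -0.22 and 0.35. Uqcrc2 had a higher mean in old than in young mice (0.24), and its second probe set was higher in all 5 old CR mice than in all young mice (0.79, limma, adjusted p = 0.104). That probe set passed old CR against young among the 11313 brightest probe sets (adjusted p = 0.0284) and with a trend in the variance (adjusted p = 0.0285).

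Cytochrome c, the soluble carrier between complexes III and IV, had differences near 0. The Cycs intensity was 12293, 13074, 10272, 9473 and 13118 in the young mice, 11552, 11412, 13146, 9285 and 9711 in the old and 11717, 10665, 13582, 9887 and 11011 in the old CR. The 3 groups overlapped throughout. The difference was -0.08 with age and 0.05 in old CR against old (SE 0.14, limma, adjusted p = 0.835 and 0.879). The other Cycs probe sets gave -0.34 and -0.20 with age and 0.21 and 0.34 in old CR against old, none of which passed.

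Complex IV had a median difference of -0.21 with age, with 14 of 16 genes lower, a count that stayed at 14 with both other scalings. Its median was 0.22 in old CR against old with 13 of 16 genes higher (11 with both other scalings), and 1 gene, Cox8b, was called. The muscle isoforms had a median of 0.59 in this comparison and the general isoforms 0.27, each over 3 genes.

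Cox8b, the muscle isoform of a small membrane subunit, rose in old CR against old. Its intensity was 14683, 17289, 13375, 15094 and 17700 in the young mice, 12622, 10564, 10938, 11568 and 10955 in the old and 16501, 15250, 17865, 16346 and 19328 in the old CR. Every old mouse lay below every young and every old CR mouse, and the latter 2 groups overlapped. The difference was 0.59 (SE 0.12) in old CR against old (limma, adjusted p = 0.0157) and -0.46 (SE 0.12) with age (adjusted p = 0.0943). Without young replicate 3 the age difference was -0.51 and passed (limma, adjusted p = 0.0225), in a fit that called 4.72% of all probe sets. It passed in no other fit with 1 array left out. Cox8a, its general counterpart, had an intensity of 1561, 2526, 2780, 2177 and 2487 in the young mice, 1896, 1432, 2136, 1849 and 1502 in the old and 2135, 1592, 2173, 2666 and 2091 in the old CR. The groups of Cox8a overlapped, with differences of -0.38 (SE 0.18, limma, adjusted p = 0.343) with age and 0.27 (adjusted p = 0.415) in old CR against old.

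Cox7a1, the muscle isoform of a further small membrane subunit, had an intensity of 5611, 3873, 5089, 5508 and 5332 in the young mice, 4560, 4307, 5074, 2908 and 2954 in the old and 7953, 4335, 6180, 6419 and 5306 in the old CR. Old CR replicate 2 was the highest and old replicates 4 and 5 the lowest, and old CR overlapped both other groups. The difference was -0.38 (SE 0.20) with age (limma, adjusted p = 0.375) and 0.62 (SE 0.20) in old CR against old (adjusted p = 0.0896). Its general counterpart Cox7a2 had an intensity of 16972, 13132, 19219, 15431 and 18135 in the young mice, 15203, 13534, 15617, 12331 and 14626 in the old and 18162, 16553, 17848, 17152 and 19187 in the old CR. All old CR mice of Cox7a2 lay above all old mice, and the difference of 0.32 (SE 0.12) did not pass (limma, adjusted p = 0.144).

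Cox6a2, the muscle isoform of a regulatory subunit, had an intensity of 17204, 19929, 17969, 16280 and 17518 in the young mice, 16794, 13573, 15363, 12453 and 14778 in the old and 16655, 18844, 16302, 18141 and 18816 in the old CR. The old mice were mostly the lowest, with 1 of them inside the range of the other groups. The difference was -0.29 (SE 0.11) with age and 0.29 (SE 0.11) in old CR against old (limma, adjusted p = 0.229 and 0.149). Its general counterpart Cox6a1 had an intensity of 2897, 3620, 4418, 4287 and 3772 in the young mice, 3628, 3618, 3856, 2909 and 3215 in the old and 3672, 2697, 3304, 2603 and 3543 in the old CR. By this probe set the mean of Cox6a1 was highest in the young and lowest in the old CR, with all groups overlapping. The differences were -0.13 in both comparisons (limma, adjusted p = 0.714 and 0.659). A second, dimmer probe set had its lowest mean in the old, with 1711 in the young, 1515 in the old and 1700 in the old CR. It differed by -0.16 with age and 0.15 in old CR against old (limma, adjusted p = 0.703 and 0.670).

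To ask whether muscle and general isoforms differed unequally between groups, their log2 difference was taken within each array. Its value compares groups only, not the level of 1 isoform with the other, since probe sets bind with different strength. Comparing old CR with old, the muscle minus general value was higher by 0.42 for Cox6a (95% interval 0.09 to 0.74), 0.30 for Cox7a (-0.15 to 0.74) and 0.32 for Cox8 (-0.03 to 0.66). The p-values were 0.0238, 0.159 and 0.0714 (exact permutation test, two-sided), and 0.214, 0.378 and 0.321 when adjusted over the 9 tests of 3 pairs and 3 comparisons. With age the differences were -0.16, -0.18 and -0.08 (exact permutation test, adjusted p = 0.378, 0.378 and 0.682), with intervals of -0.47 to 0.16, -0.53 to 0.18 and -0.50 to 0.33. Against young, old CR differed by 0.26, 0.12 and 0.24 (exact permutation test, adjusted p = 0.378, 0.536 and 0.378). No pair passed, and the intervals leave room for differences in either direction in all but 1 of the 9 tests. That 1, Cox6a in old CR against old, rests on the brightest Cox6a1 probe set (-0.13), while the second gave 0.15. For Cox8a the brightest probe set gave 0.27 in that comparison and the others -0.065 and 0.36.

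**Figure D2:**
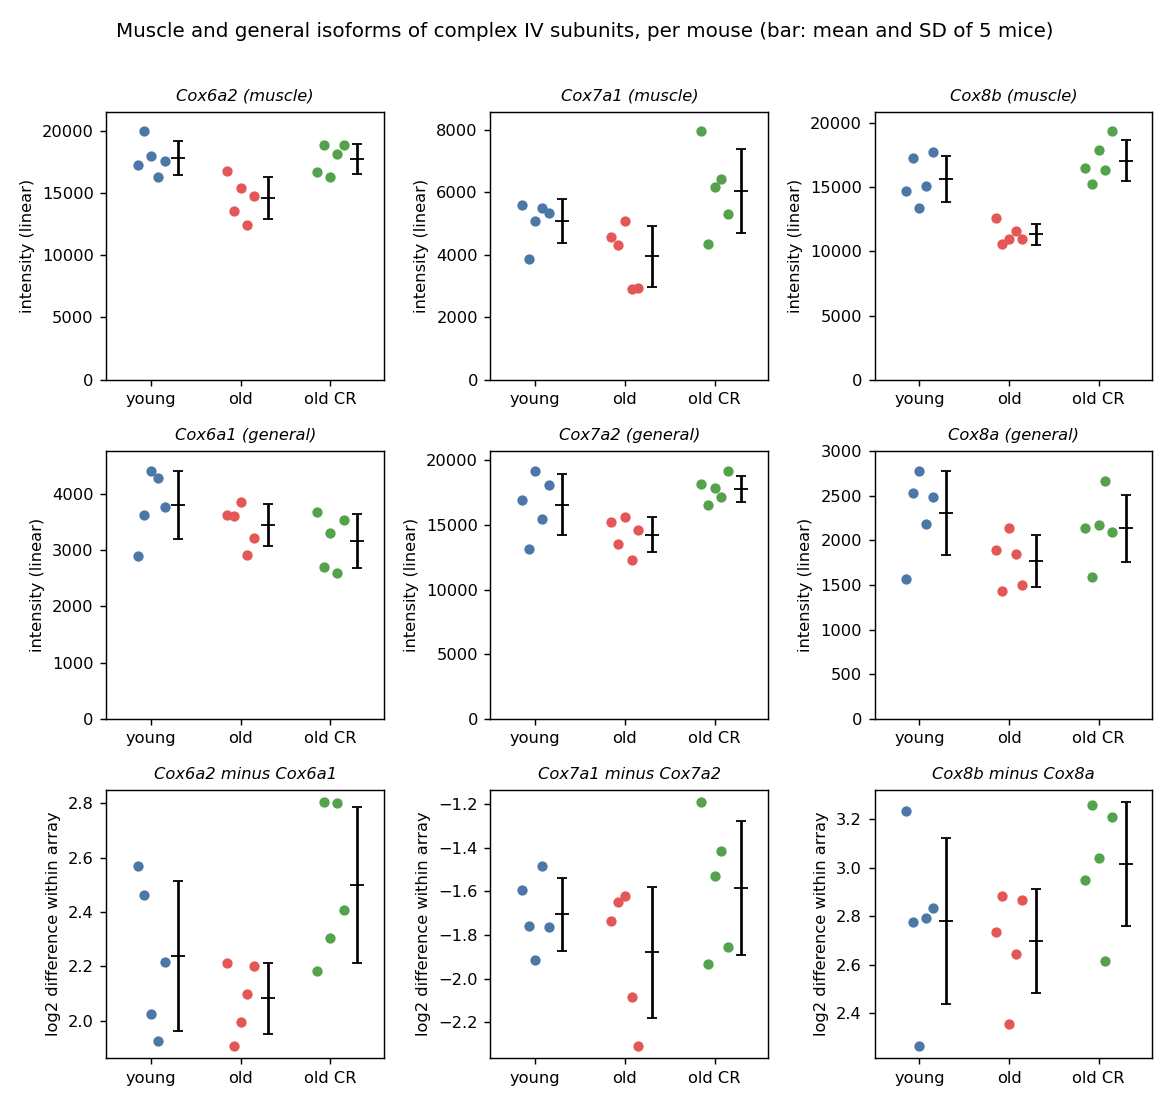
Linear intensity of the muscle isoforms (top) and general isoforms (middle) of Cox6a, Cox7a and Cox8, and the log2 difference of each pair within an array (bottom, axis not from 0), 1 point per mouse, with bars for the mean and SD of 5 mice. All old points of Cox8b lie below the other groups, and the bottom panels overlap between groups in each pair.

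Cox6b1, which joins the monomers of complex IV, had an intensity of 12816, 14097, 16534, 15234 and 15368 in the young mice, 11775, 12096, 13913, 11699 and 14895 in the old and 18357, 14381, 15509, 17805 and 15861 in the old CR. Old CR lay mostly above old, and old replicate 5 exceeded the lowest old CR mouse. Its difference was 0.35 (SE 0.12) in old CR against old (limma, adjusted p = 0.105) and -0.20 with age (adjusted p = 0.438), while its second probe set gave 0.00 in old CR against old.

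The remaining subunits of complex IV did not pass in any comparison. Cox4i1 and Cox4i2, the common and the lung isoform of a subunit that binds ATP, differed by -0.11 and -0.41 with age and by 0.08 and 0.30 in old CR against old. Cox5a differed by -0.12 and 0.04, and Cox5b, which binds zinc, by -0.26 and 0.17. The 5 other Cox5b probe sets ranged from -0.41 to 0.55 in old CR against old, and the lowest of these came from a very dim probe set. Cox6c differed by -0.18 with age and 0.15 in old CR against old. Cox7a2l, a factor that links complexes III and IV in supercomplexes, differed by 0.03 and -0.11. Cox8c and Cox6b2, known from testis, differed by -0.18 and -1.27 with age and by -0.15 and 1.38 in old CR against old. Cox6b2 was dim, ranging from 14 to 154 in the old and from 97 to 203 in the old CR. Both probe sets of Cox7c were dim, and the brighter one gave 0.56 with age and 0.18 in old CR against old, with standard errors of 0.52.

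Complex V had a median difference of -0.09 with age, with 14 of 17 genes lower, but 9 of 17 with each array centred on its median or after quantile normalization. In old CR against old the median was 0.23 with 16 of 17 genes higher (15 with centred arrays and 12 after quantile normalization). Atp5e and Atp5j2 were called by their brightest probe sets and Atp5pb by a dimmer one. The 5 subunits of F1, the catalytic head, had a median of 0.13, and the 12 of Fo and the stalks, which form the rotor and the parts that hold the head, had a median of 0.24 with all 12 higher.

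Atp5e, the small epsilon subunit of the central stalk, had the lowest adjusted p of all members. Its only probe set has the suffix s_at, so its values may include other genes. Its intensity was 7349, 7493, 6185, 9009 and 7465 in the young mice, 4776, 5001, 4954, 3720 and 5696 in the old and 8961, 7447, 8794, 8078 and 8563 in the old CR. Every old mouse lay below every young and every old CR mouse. The difference was 0.80 (SE 0.13) in old CR against old (limma, adjusted p = 0.00915) and -0.64 (SE 0.13) with age (adjusted p = 0.0600). Without young replicate 3 the age difference was -0.71 and passed (limma, adjusted p = 0.0105), in a fit that called 4.72% of all probe sets. It passed in no other fit with 1 array left out. With the 3' bias as a covariate the old CR difference was 0.40 and did not pass (adjusted p = 0.841).

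Atp5j2, subunit f of the membrane part, had an intensity of 12337, 11365, 11004, 12068 and 11044 in the young mice, 8644, 9436, 9622, 7659 and 9648 in the old and 13401, 12049, 11526, 11119 and 11341 in the old CR. Again old mice lay below all young and all old CR mice. The difference was 0.40 (SE 0.11) in old CR against old (limma, adjusted p = 0.0445) and -0.37 with age (adjusted p = 0.121). This call held without young replicate 3 and was lost without any of the other 14 arrays. The called probe set has the suffix s_at, and a second one without that suffix gave 0.43 in old CR against old (limma, adjusted p = 0.0636).

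Atp5pb, subunit b of the peripheral stalk, was read by 2 probe sets. The called one had intensities of 8768, 8263, 6835, 8252 and 7806 in the young mice, 6969, 6327, 7001, 5795 and 6521 in the old and 11638, 8735, 10205, 10279 and 9681 in the old CR. All old CR mice lay above all old mice, and the difference was 0.63 (SE 0.11) in old CR against old (limma, adjusted p = 0.0120). The brightest one had intensities of 8644, 8807, 8276, 8671 and 8389 in the young mice, 8438, 8582, 8635, 7315 and 7866 in the old and 11196, 10733, 9998, 9866 and 10063 in the old CR. Here all old CR mice lay above all other mice, with differences of 0.35 (SE 0.09) against old (limma, adjusted p = 0.0512) and 0.28 against young (adjusted p = 0.257).

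**Figure D3:**
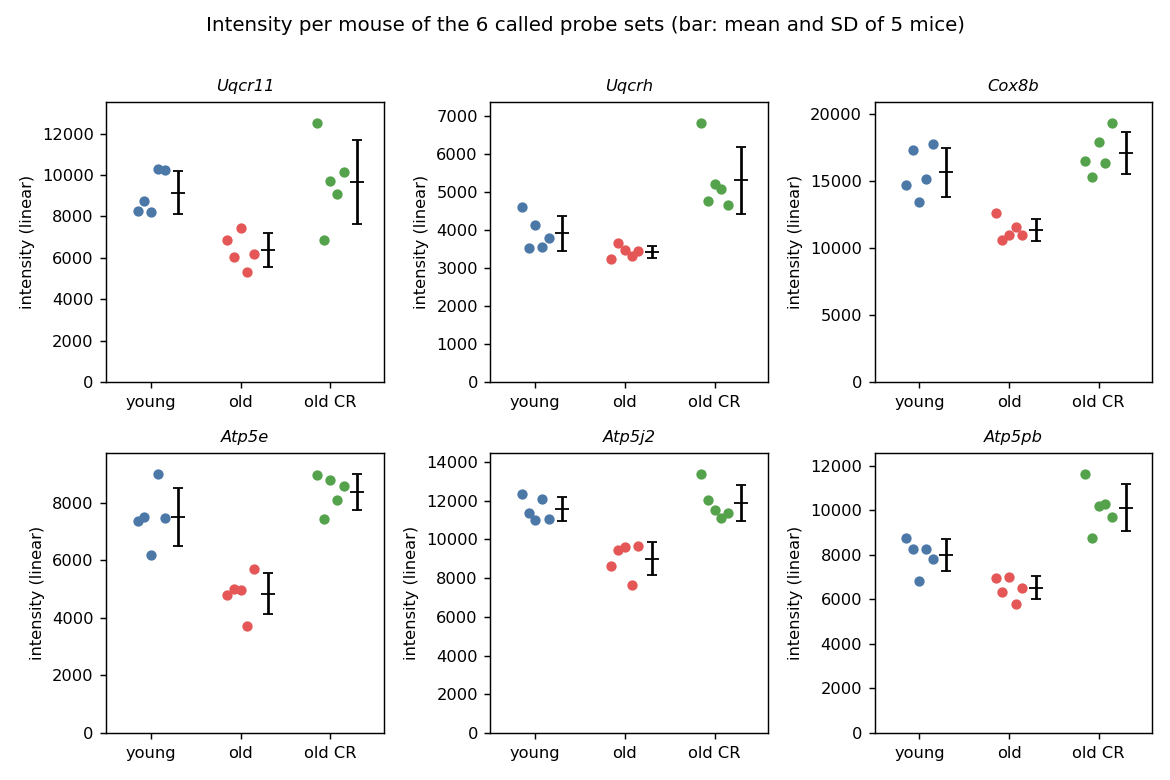
Linear intensity of the 6 called probe sets, 1 point per mouse, with bars for the mean and SD of 5 mice and a scale of its own in each panel. In 5 of the 6 panels all old CR mice lie above all old mice, and Uqcr11 is the exception, with 1 old CR mouse at 6880 inside the old range.

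The head subunits Atp5a1 (alpha) and Atp5b (beta), which make ATP, differed by -0.13 and -0.04 with age and by 0.24 and 0.13 in old CR against old. Of the central stalk, Atp5c1 (gamma) differed by -0.06 and 0.12 and Atp5d (delta) by 0.04 and -0.26. The second probe set of Atp5d gave 0.14 in old CR against old. The genes Atp5g1, Atp5g2 and Atp5g3 encode the same mature subunit c of the rotor. They differed by -0.32, -0.01 and -0.20 with age and by 0.25, 0.10 and 0.18 in old CR against old.

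In the peripheral stalk, Atp5h (d) was higher in all old CR mice than in all old mice without passing (0.45, limma, adjusted p = 0.113). Atp5o, which ties the stalk to the head, differed by -0.21 with age and 0.23 in old CR against old, and Atp5j (coupling factor 6) by 0.07 and 0.33. Among the small membrane subunits that help ATP synthase form dimers, Atp5l (g) differed by -0.29 and 0.28 and Atp5k (e) by -0.09 and 0.22. For Atp5l and Atp5g3 every old mouse lay below every young mouse. Atp5md and Atp5mpl, small proteins bound to the membrane part, differed by 0.07 and -0.03 with age and by 0.12 and 0.08 in old CR against old.

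The third comparison, old CR against young, asked how far old CR mice differed from young ones. No member passed, where 0.0884% of all probe sets did (limma). At an unadjusted p under 0.05 there were 9 members (11.4%), 8 higher and 1 lower, against 12.1% of all probe sets. Means were higher in old CR for 27 of 43 genes, and for 23 after quantile normalization, with a median difference of 0.06 against -0.01 over all probe sets. By complex the median was 0.08 for III, -0.03 for IV and 0.09 for V. This comparison shares the old CR mice with the one before, so its values are not a separate measurement of them.

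Of 23 genes with several probe sets, the sign of the difference disagreed between probe sets of the gene in 9 for old against young, 6 for old CR against old and 9 for old CR against young. For old CR against old these were Atp5a1, Atp5d, Cox5b, Cox6a1, Cox7a2l and Cox8a, none of them called.

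Genes that act with these complexes were read from lists. The 4 genes of complex II, which feeds electrons to complex III, had lower means with age and higher ones in old CR against old in all 4 cases (medians -0.16 and 0.22), with none called. Of 25 measured assembly factors of complexes III to V, 4 were called higher in old CR against old, where 2.70% of all probe sets were, and 1 was called lower with age, where 0.265% of all probe sets were called in either direction. Uqcc2 and Uqcc3, needed to assemble complex III, rose by 0.83 and 0.67 in old CR against old (limma, adjusted p = 0.00791 and 0.0452). Coa3 and Cox15, needed for complex IV, rose by 0.97 and 0.78 (adjusted p = 0.0141 and 0.0299), and Cox15 fell by 0.95 with age (adjusted p = 0.0462). These calls too were absent from the fit with the 3' bias as a covariate, which called no probe set in either comparison. None of the 8 carriers of ATP and phosphate and their partners was called in any comparison, and none of the 16 regulators of nuclear genes for mitochondrial proteins, whose median was -0.11 in old CR against old.

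Fiber markers differed between the same groups. The 7 slow fiber markers were higher in old CR than in old mice in 7 of 7 cases, with a median of 0.73 and 1 called (Tnnc1, 1.45, limma, adjusted p = 0.0270). Summed over these markers, young mice ranged from 26564 to 73741, old mice from 31466 to 65955 and old CR mice from 68107 to 95354. The 7 fast fiber markers were also higher in 7 of 7 cases, with a median of 0.17 and 1 called (Myh1, 0.52, adjusted p = 0.0297), and lower with age in 7 of 7, none called. The sum of these was 177511 to 212692 for young mice, 144827 to 197186 for old mice and 155849 to 223935 for old CR mice. Slow markers were higher in old CR than in young as well, in 7 of 7 cases with a median of 0.73 and none called, where the member genes had a median of 0.06. The part of fiber makeup in the member differences was not tested.

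Markers of other cell types were summed in the same way, and no value in the table was 0. Summed over 3 white adipocyte markers, young mice ranged from 2757 to 5561, old mice from 2884 to 7982 and old CR mice from 1637 to 4081. Over 4 macrophage markers it ranged from 2840 to 7231, 4666 to 6993 and 3116 to 4793, and over 3 endothelial markers from 1961 to 2358, 1592 to 2096 and 1875 to 2478. In old CR against old, 1 adipocyte marker had a higher mean and 2 a lower one, and for macrophages it was 1 and 3. Over 4 tendon markers the sum ranged from 6741 to 13820 in the young and was mostly lower in both old groups (2639 to 6896 and 2586 to 4768). Col1a2 was called in old CR against young (limma, -1.49, adjusted p = 0.0472). With age 3 of the 4 had lower means and Scx, a dim one, a higher mean (0.53, not called). The 3 brown adipocyte, 2 red blood cell and 3 cardiac markers had sums of 122 to 538, 110 to 1824 and 113 to 302 over all 15 mice. The red blood cell sum covers 2 of 3 listed genes, each by 1 probe set, at the 40.2nd and 52.8th percentile of brightness. It does not tell how much blood the muscle held. No marker of these lists other than Col1a2 was called, and their part in the member differences was not tested.

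Read mouse by mouse, the mean log2 intensity of the 43 genes was 12.74 to 12.83 for young mice, 12.47 to 12.71 for old mice and 12.71 to 12.97 for old CR mice. Every young mouse therefore lay above every old mouse, and the lowest old CR mouse lay just below the highest old mouse. Young replicate 3, whose 3' bias resembled those of the old mice, had a member mean of 12.80, inside the young range.

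**Figure D4:**
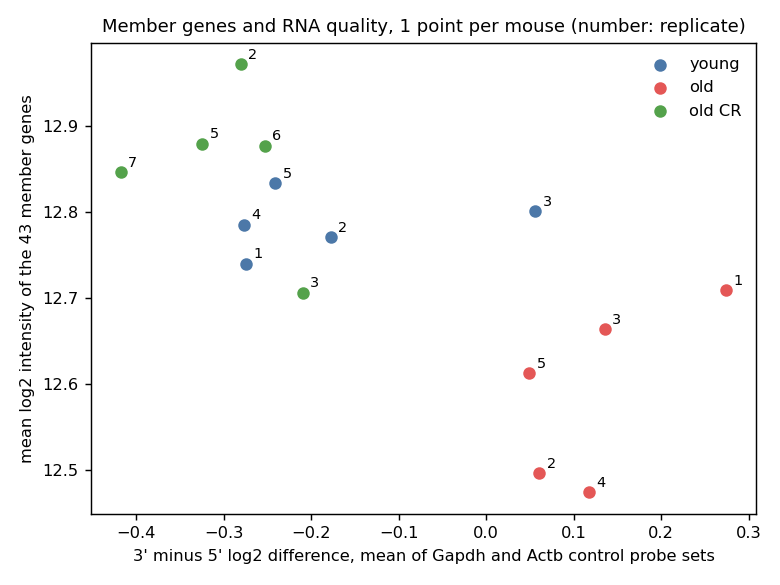
Mean log2 intensity of the 43 genes against the 3' bias (log2, 3' minus 5', Gapdh and Actb averaged), 1 point per mouse, numbered by replicate. Old mice lie at a 3' bias of 0.05 to 0.27 and old CR mice at -0.42 to -0.21. Young mice lie at -0.28 to 0.06, with replicate 3 the highest.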

How the data were processed

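Processing followed the values as the authors deposited them: 1 linear intensity per probe set and array of the MOE430A platform, scaled to a common level (the trimmed mean, without the lowest and highest 2%, is 500.0 on each array). The submitters' processing notes name MAS5 and RMA, and the deposited intensities are not RMA values. They were converted to log2 with no pseudocount and no further normalization, and 64 array controls were not fitted. All 15 arrays were fitted in 1 model with limma 3.58.1 (lmFit, contrasts, eBayes) in R 4.3.3, with calls made where the adjusted p was under 0.05 (Benjamini-Hochberg over 22626 probe sets). Of 22690 probe sets, 20393 had 1 gene symbol in GEO's platform annotation, 691 several and 1606 none. None of the 691 held a member symbol. Isoform pairs and 3' bias (3' minus 5' control probe sets) were compared by exact permutation tests in Python 3.11.15 with SciPy 1.17.1, and the 95% intervals came from the pooled SD of the 2 groups. Promoter letters came from the RefSeq table.

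Every member gene was named, by its brightest probe set over the 15 arrays. Values in every array were given for the 6 isoform genes, for each called member, and otherwise for the 3 members of a complex with the lowest adjusted p. The members, the lists of other genes and the motifs were chosen with earlier results of these data known. Alternatives tried were only the 11313 brightest probe sets, median centring, quantile normalization, a pseudocount of 16, fits of only the 2 groups compared, a replicate block, array weights, robust eBayes with a variance trend, the 3' bias as a covariate, an adjusted p under 0.10, the mean of all probe sets of an isoform gene, and leaving out each array. Replicates are separate mice, and the number of arrays limits the precision.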

Additional observations from a re-analysis of the deposited data

Results flagged for a closer look

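Within each group of 5 mice, the log2 values of the 43 genes and of the 3 isoform pairs were searched for a single mouse far from the others, by the gap to its nearest neighbour as a share of the group's range. Of 138 groups, 3 exceeded the critical value of 0.71, and chance alone gives about 1 in 20. Uqcrh in old CR replicate 2 was 6816, where the other old CR mice lay between 4655 and 5190. Cox7a1 in young replicate 2 was 3873, where the other young mice lay between 5089 and 5611. Atp5b in young replicate 3, the young array with the highest 3' bias, was 11155, where the others lay between 16268 and 17510. The cause of these values was not tested.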

How the results depend on the processing

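Both the call counts and the size of the differences depended on the setting. In old CR against old, 6 member probe sets passed as reported, 14 at an adjusted p under 0.10, 15 among the 11313 brightest probe sets, 16 with a variance trend and robust eBayes, 3 with median centring (Atp5e, Atp5pb and Cox8b), and 0 with the 3' bias as a covariate. The shares of all probe sets tested were 4.87%, 10.1%, 15.7%, 7.36%, 4.89% and 0%, beside 7.59%, 17.7%, 21.4%, 20.3%, 3.8% and 0% of the members. With the covariate, 6.33% of members and 6.46% of all 22626 had an unadjusted p under 0.05 (limma). Leaving out 1 array gave 4 to 8. Atp5e, Atp5pb, Cox8b and Uqcrh were called in all 15 of these fits. In old against young, 0 passed as reported, 2 at an adjusted p under 0.10, 3 with array weights, 3 among the brightest and 4 with the variance trend. These were 0%, 2.53%, 3.8%, 4.29% and 5.06% of the members, beside 0.265%, 1.68%, 3.4%, 5.06% and 1.85% of all probe sets tested. The calls with array weights and among the brightest were Atp5e, Cox8b and the dimmest Uqcr10 probe set, and the variance trend added Atp5j2. In old against young, leaving out 1 array gave 0 to 2, with 2 without young replicate 3, where 4.72% of all probe sets passed. In old CR against young, 1 passed among the brightest and 1 with the variance trend (1.43% and 1.27% of members, 1.8% and 0.667% of all). The labels do not say whether equal replicate numbers mark paired mice. Correlations of same-numbered arrays ran from -0.28 to 0.09, which is too few arrays to decide it. The replicate block gave 0 calls among the members in every comparison. Of all 22626, that fit called 4 in old CR against old and 0 in both others (limma), and 15.2% had an unadjusted p under 0.05 in old CR against old, beside 13 members (16.5%).

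The median difference of old CR against old was 0.33 with the covariate, 0.15 with median centring and 0.12 after quantile normalization. That of old against young was -0.088 with median centring, and 47 of 51 recomputed medians moved by less than 0.0838, the SD between mice. After quantile normalization the old against young isoform difference turned to 0.053 for Cox6a and 0.046 for Cox8, and leaving out 1 array gave -0.21 to 0.031 for Cox8, above 0 without old replicate 3 or young replicate 1.

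Over all 43 genes, each read by its brightest probe set, 116 of 3090 recomputed differences turned direction, none of them 1 of the 6 differences called in old CR against old. Part of the 3090 could not turn, because the refit left the group means as they were. These fits were the brightest probe sets alone, only the 2 groups, the variance trend, and leaving out an array of a group not compared. For the 14 genes given in every array, 25 of 1008 turned direction, with the same limit and these values. In old against young, Atp5pb turned to 0.020 with median centring and 0.0024 after quantile normalization, and Cycs to 0.012 with median centring. In old CR against old, Cycs turned to -0.027 with the covariate, -0.040 with median centring and -0.079 after quantile normalization, and ran from -0.018 to 0.11 with 1 array left out. In old CR against young, Atp5j2 turned to -0.028 and Uqcr10 to -0.046 after quantile normalization, and Uqcr10 to -0.029 with the replicate block. There, Cox6a2 turned to 0.050 with the covariate and 0.016 with array weights, and Cox8a to 0.025 with the covariate. With 1 array left out, old CR against young ran from -0.0059 to 0.062 for Atp5j2, -0.033 to 0.040 for Cox6a2, -0.10 to 0.018 for Cycs, -0.049 to 0.091 for Uqcr10 and -0.041 to 0.18 for Uqcr11. The causes were not tested. Signal over background could not be judged from these intensities, and small subunits read by dim probe sets, such as Cox7c, have wide errors.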
